A study of Mus musculus with 18 samples.

Results

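The genes of 8 mechanosensitive channels and of 2 strain-responsive co-activators were followed across 18 RNA libraries of mouse optic nerve head, where the axons of the retina's ganglion cells gather to form the optic nerve. The channel genes are Piezo1, Piezo2, Trpv2, Trpv4, Kcnk2, Tmem63a, Tmem63b and Panx1, and the co-activators are YAP and TAZ, encoded by Yap1 and Wwtr1. They were picked by name, as sensors of strain, with earlier results of these data known. They are 10 of the 55416 genes in the tables. All 10 were found and all 10 passed the filter on low counts, which kept 15118 genes.

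The libraries fell into 4 groups by the mouse line and the age in their labels. They were 3 libraries of B6.EDA+/+ mice and 5 of C57BL/6J mice at 22 months, and 5 libraries of each line at 12 months. B6.EDA+/+ mice carry a fibronectin gene built to include the extra domain A (EDA) exon in every transcript, in all cells that make fibronectin. The C57BL/6J libraries served as controls, and the labels name no treatment. The study set the lines side by side at both ages, and took the tissue from eye sections by laser capture, in which a chosen area is excised under a microscope. Whether any 2 libraries share an animal is not stated in the labels, so the p-values measure the spread between libraries, which may be technical in part.

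Piezo1, Piezo2 and Trpv4 are cation channels that let calcium into a cell when its membrane is stretched or its surroundings press on it. TREK-1, the product of Kcnk2, is a potassium channel opened by stretch, TMEM63 proteins are channels opened by membrane tension and by swelling, and pannexin 1, the product of Panx1, forms a large pore that releases ATP. YAP and TAZ carry mechanical state to the nucleus: the Hippo kinases hold them in the cytoplasm, and when that hold is eased they enter the nucleus and drive genes through TEAD transcription factors. Astrocytes of the optic nerve head are known to respond to strain from eye pressure, and TRPV4, Piezo and pannexin channels have been studied there for that reason.

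The libraries held 13097498 to 18488733 counts each, with 9703 to 13048 genes at 10 reads or more. The astrocyte marker Gfap stood at 2577 to 17692 TPM (a level scaled for transcript length and library total), and Aqp4, Slc1a3 and Gja1 were present in all 18 libraries. Summed marker levels in TPM ran from 3282 to 19162 for 7 astrocyte genes, from 222 to 22785 for 6 oligodendrocyte genes, and from 107 to 678 for 6 genes of microglia and macrophages. They ran from 45.1 to 245 for endothelial cells, from 28.2 to 156 for pericytes and smooth muscle, from 131 to 570 for fibroblasts and meninges, and from 52.7 to 130 for neurons. Oligodendrocyte precursor genes summed to 10.5 to 75.3, and pigment epithelium genes to 8.02 to 71.0, mostly Rlbp1. Photoreceptor genes reached 4479 in C57BL/6J-labelled replicate 2 at 22 months and 1.35 to 160 elsewhere, and skeletal muscle genes reached 240 in EDA-labelled replicate 1 at 22 months. The Schwann cell genes summed to 177 to 735, mostly from Pmp22, and Prx of that list had no reads in 14 of 18 libraries. Krt5, Krt14 and Epcam of the epithelium list were at 0 in all 18. Xist exceeded the Y-linked transcripts in 1 of 3 EDA-labelled and 0 of 5 C57BL/6J-labelled libraries at 22 months, and in 2 of 5 libraries with each label at 12 months, so the groups mixed the sexes unequally. The EDA exon, which should separate the lines, did not check the labels. Its share was read from little signal, since the Fn1 isoforms that span it summed to 18.56 TPM in C57BL/6J-labelled replicate 5 at 12 months and to between 0.87 and 7.91 TPM in the others. Within C57BL/6J-labelled libraries at 22 months the estimated share ran from 0% to 100%. In EDA-labelled libraries it ran from 0% to 12.62% at 22 months and from 0% to 58.46% at 12 months. At 22 months EDA-labelled libraries held it in 4.21% ± 7.29 of the Fn1 TPM on isoforms that span it (SD, n = 3) and C57BL/6J-labelled ones in 41.8% ± 53.3 (SD, n = 5), and the exact permutation p was 0.571. At 12 months EDA-labelled libraries held it in 22.8% ± 27.97 (SD, n = 5) and C57BL/6J-labelled ones in 31.1% ± 44.6 (SD, n = 5), and the exact permutation p was 0.762. No difference by label was detectable at this depth. The EDA-labelled shares also lay below the full inclusion that the line should give, and the cause was not tested. Libraries are therefore called EDA-labelled and C57BL/6J-labelled (control in the plots), and every direction between the lines is a direction between labels.

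Yap1 was by far the most abundant of the 10 genes, followed by Wwtr1 and Tmem63a, and the other channels were low. Averaged over the 18 libraries, Yap1 stood at 465 TPM and ranked 205 among all genes, Wwtr1 at 105 TPM ranked 959, and Tmem63a at 62.0 TPM ranked 1565. The remaining means were 6.47 TPM for Tmem63b, 6.01 for Piezo2, 5.01 for Kcnk2, 4.24 for Trpv4, 3.67 for Panx1, 3.04 for Piezo1 and 0.533 for Trpv2. Yap1 lay above Wwtr1 in 18 of 18 libraries, Wwtr1 above Tmem63a in 15, Tmem63a above Tmem63b in 18, and Piezo1 above Trpv2 in 17. The 6 genes from Tmem63b to Piezo1 had no fixed order: neighbours by mean were in that order in 8 to 12 of 18 libraries. Since a captured area with mixed cell types was measured, fewer cells of a type and less RNA per cell cannot be told apart.

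**Figure D1:**
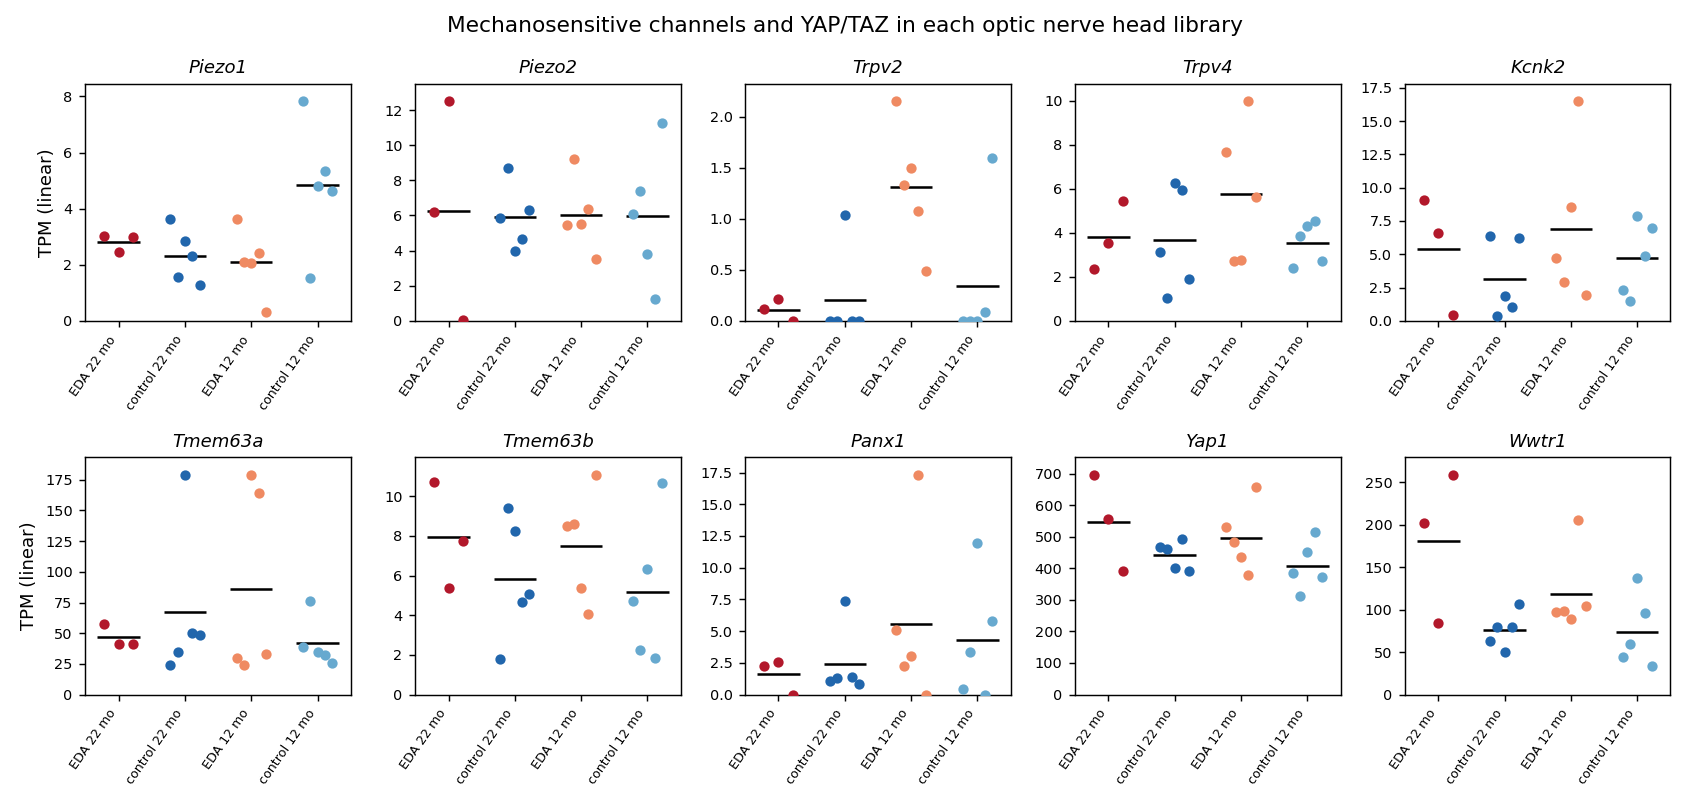
Level of each of the 10 genes in TPM on a linear axis, 1 point per library and 1 bar per group mean, with EDA-labelled groups left of C57BL/6J-labelled ones at each age. Yap1 fills a narrow band between 313 and 696 TPM, while Wwtr1 and Tmem63a have a few libraries well above the rest.

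The test across all genes called none of the 10 genes in any comparison. In edgeR's quasi-likelihood test, 0 of 15118 genes passed an adjusted p of 0.05 in each of the 4 comparisons between groups, 0.0% in each, and likewise for the interaction of label and age, where 4.02% had an unadjusted p under 0.05 and none of the 10 did. At an unadjusted p under 0.05 the counts over all genes were 599 and 689 for EDA-labelled against C57BL/6J-labelled libraries at 22 and 12 months, and 753 and 530 for 22 against 12 months in EDA-labelled and C57BL/6J-labelled libraries. DESeq2 called 35, 22, 43 and 23 genes in the same comparisons, and none of the 10. Of the 10 genes, 1 had an unadjusted p under 0.05 between the labels at 22 months (Wwtr1, higher), against 3.96% of all genes in either direction and 2.09% in that one. At 12 months 1 gene did (Piezo1, lower), against 4.56% of all genes in either direction and 1.59% in that one. Between the ages none did, where 4.98% of all genes did in EDA-labelled and 3.51% in C57BL/6J-labelled libraries. In no comparison did any of the 10 separate the groups without overlap, which 2.75% and 1.26% of all genes did between the labels at 22 and 12 months, and 4.0% and 0.556% between the ages in EDA-labelled and C57BL/6J-labelled libraries.

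**Figure D2:**
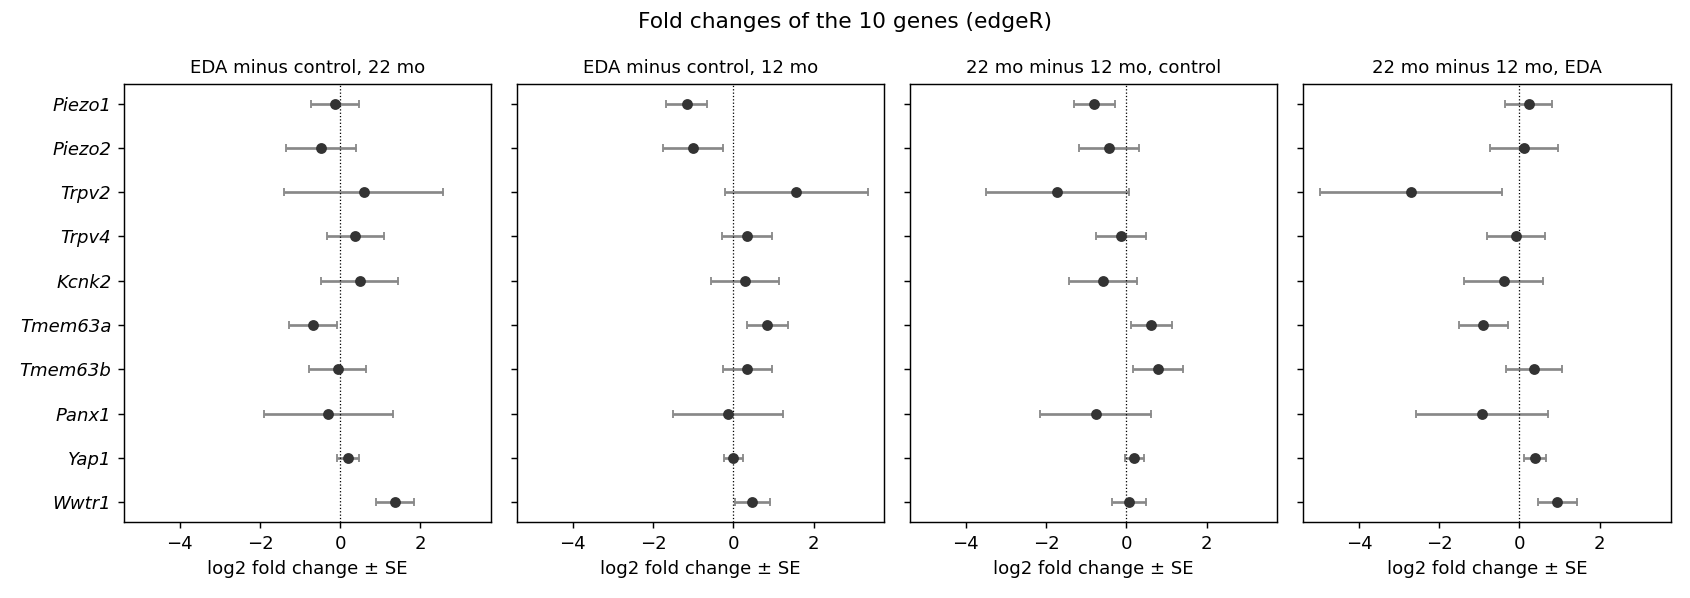
Log2 fold change of each gene in the 4 comparisons, EDA-labelled minus C57BL/6J-labelled or 22 minus 12 months. Bars show 1 standard error, derived from edgeR's F statistic. Wwtr1 at 22 months, at 1.36, and Piezo1 at 12 months, at -1.16, lie farthest from 0 in units of their error, and the bars of Trpv2 and Panx1 are the widest.

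Piezo1, the stretch-gated channel of endothelial and many other cells, was lower in EDA-labelled than in C57BL/6J-labelled libraries at 12 months by size, but did not pass the test. It stood at 3.64, 2.08, 2.07, 2.42 and 0.33 TPM in the EDA-labelled libraries, against 7.83, 1.54, 4.82, 5.34 and 4.64 TPM in the C57BL/6J-labelled ones. Of the C57BL/6J-labelled libraries 4 lay above every EDA-labelled one, and replicate 2 lay among them. The log2 fold change was -1.16 ± 0.52 (SE), with an unadjusted p of 0.036 and an adjusted p of 1.0 in edgeR. With 1 library left out at a time it ran from -1.403 to -0.886, the smallest without the EDA-labelled replicate 5. At 22 months Piezo1 stood at 3.04, 2.45 and 2.97 TPM in EDA-labelled and at 3.62, 1.57, 2.84, 2.31 and 1.26 TPM in C57BL/6J-labelled libraries. Those groups overlapped throughout, and the log2 fold change was -0.13 ± 0.59 (SE). Between the ages, the 5 C57BL/6J-labelled libraries at 22 months all lay below the median of the 12-month ones, and the log2 fold change was -0.80 ± 0.51 (SE, edgeR unadjusted p = 0.134). The difference between the label effects at the 2 ages, tested as the interaction, was 1.03 on the log2 scale with an unadjusted p of 0.198 in edgeR.

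Piezo2, the channel of touch and proprioception in sensory neurons, was present in every group at levels that overlapped. It stood at 6.21, 12.5 and 0.03 TPM in EDA-labelled libraries at 22 months, against 5.85, 8.73, 3.95, 4.68 and 6.33 TPM in C57BL/6J-labelled ones. The third EDA-labelled library held a single Piezo2 read and also had the fewest genes detected of all libraries. At 12 months the values were 5.48, 9.24, 5.52, 6.37 and 3.54 TPM in EDA-labelled and 6.11, 7.39, 3.81, 1.25 and 11.2 TPM in C57BL/6J-labelled libraries. By TPM these groups overlapped, with medians of 5.52 and 6.11 TPM. By read counts the EDA-labelled libraries all lay below the C57BL/6J-labelled median, at 6.53 to 17.6 against 3.67 to 39.2 CPM (counts scaled to the library total). The fold change, which is fitted to counts, was -1.01 ± 0.75 on the log2 scale (SE, edgeR unadjusted p = 0.191). TPM also divides by the length that the authors' quantification assigned, and no isoform of this gene led in more than 4 of 18 libraries.

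Trpv2, a cation channel opened by heat, swelling and stretch that macrophages also express, was near the detection limit. At 12 months it had 33, 19.3, 22, 18 and 4 reads in the EDA-labelled libraries, against 0, 0, 0, 1 and 28 reads in the C57BL/6J-labelled ones. All 5 EDA-labelled libraries thus had reads, as did 2 C57BL/6J-labelled ones, of which replicate 5 lay within the EDA-labelled range. At 22 months it had 3, 5 and 0 reads in EDA-labelled and 0, 0, 9, 0 and 0 reads in C57BL/6J-labelled libraries. A count of 0 allows up to 3 counts, which came to 0.167 to 0.229 CPM over the libraries at 0 for this gene or for Panx1. Such limits cover counting error only, since amplified reads are not independent molecules. The log2 fold change was 1.57 ± 1.78 (SE) at 12 months and 0.59 ± 1.98 (SE) at 22 months, and -2.70 ± 2.27 (SE) for 22 against 12 months in EDA-labelled libraries. None of the 3 passed the test, with unadjusted edgeR p-values of 0.389, 0.771 and 0.249.

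Trpv4, the calcium channel gated by swelling and stretch, was present in all 18 libraries. It stood at 2.36, 3.54 and 5.47 TPM in EDA-labelled libraries at 22 months, against 3.12, 1.05, 6.26, 5.96 and 1.92 TPM in C57BL/6J-labelled ones. At 12 months the levels were 7.67, 2.72, 2.76, 9.99 and 5.65 TPM in EDA-labelled and 2.38, 3.84, 4.30, 4.55 and 2.71 TPM in C57BL/6J-labelled libraries. By TPM the 3 highest of the 12-month values were EDA-labelled, and the other 2 EDA-labelled values lay inside the C57BL/6J-labelled range. By read counts, to which the fold changes are fitted, this did not hold. EDA-labelled libraries ran from 2.97 to 20.9 CPM and C57BL/6J-labelled ones from 4.74 to 7.02 CPM. By this measure EDA-labelled replicate 1 lay within the C57BL/6J-labelled range and replicate 3 lay below it. The log2 fold changes were 0.38 ± 0.71 (SE) at 22 months and 0.34 ± 0.62 (SE) at 12 months.

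Kcnk2, which encodes the stretch-opened potassium channel TREK-1, varied widely within each group. It stood at 9.05, 6.61 and 0.44 TPM in EDA-labelled libraries at 22 months, against 6.40, 0.35, 1.88, 1.06 and 6.19 TPM in C57BL/6J-labelled ones. At 12 months it stood at 4.71, 2.90, 8.52, 16.5 and 1.97 TPM in EDA-labelled and at 2.35, 1.51, 7.90, 4.88 and 6.97 TPM in C57BL/6J-labelled libraries. The highest value at each age was EDA-labelled, but the ranges overlapped at both ages. The log2 fold changes were 0.48 ± 0.96 (SE) and 0.29 ± 0.84 (SE) at 22 and 12 months.

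Tmem63a, an osmosensitive channel of the OSCA/TMEM63 family, was the most abundant of the channels, and 3 libraries set its spread. It stood at 57.9, 41.4 and 41.2 TPM in EDA-labelled libraries at 22 months, against 24.3, 35.04, 179, 49.9 and 48.7 TPM in C57BL/6J-labelled ones. At 12 months the levels were 30.0, 24.0, 179, 165 and 32.8 TPM in EDA-labelled and 39.1, 76.5, 34.8, 32.3 and 25.3 TPM in C57BL/6J-labelled libraries. A single C57BL/6J-labelled library at 22 months and 2 EDA-labelled ones at 12 months thus lay far above the rest, which ran from 24.0 to 76.5 TPM. The log2 fold change was -0.68 ± 0.60 (SE, edgeR unadjusted p = 0.272) at 22 months and 0.85 ± 0.51 (SE, edgeR unadjusted p = 0.113) at 12 months. Their difference, tested as the interaction, was -1.52 on the log2 scale with an unadjusted p of 0.0684 and an adjusted p of 1.00 in edgeR. Without C57BL/6J-labelled replicate 3 the 22-month value was -0.03, and without EDA-labelled replicate 3 or 4 the 12-month value was 0.48 or 0.50. Summed oligodendrocyte markers were highest in 2 of the 3 libraries with high Tmem63a, and summed microglial and macrophage markers were highest in all 3. The 6 oligodendrocyte markers, of which none was at 0 in any library, summed to 22785 TPM in C57BL/6J-labelled replicate 3 at 22 months and to 22304 TPM in EDA-labelled replicate 3 at 12 months, which had 2 of the 3 high Tmem63a values. The library with the other high value, EDA-labelled replicate 4 at 12 months, summed to 3075 TPM. C57BL/6J-labelled replicates 1 and 2 at 12 months summed to more, 4951 and 6328 TPM, with Tmem63a at 39.1 and 76.5 TPM. By group the sums ran from 645 to 3389 TPM in EDA-labelled and 561 to 22785 TPM in C57BL/6J-labelled libraries at 22 months, while the 12-month sums ran from 719 to 22304 TPM in EDA-labelled and 222 to 6328 TPM in C57BL/6J-labelled ones. All 6 oligodendrocyte markers had fitted fold changes below 0 at 22 months and above 0 at 12 months, as Tmem63a did, and none passed the test. With the oligodendrocyte marker level as a covariate, the Tmem63a fold change was -0.36 at 22 months and 0.32 at 12 months. The same 3 libraries with high Tmem63a held the 3 highest sums of the 6 genes of microglia and macrophages, at 678 TPM in C57BL/6J-labelled replicate 3 at 22 months and at 566 and 646 TPM in EDA-labelled replicates 3 and 4 at 12 months, where no other library exceeded 302 TPM. By group these sums ran from 234 to 302 TPM in EDA-labelled and 107 to 678 TPM in C57BL/6J-labelled libraries at 22 months, while the 12-month sums ran from 140 to 646 TPM in EDA-labelled and 158 to 212 TPM in C57BL/6J-labelled ones. Of the 6 genes, Aif1 had no reads in 6 libraries and P2ry12 in 2, and the other 4 had reads in every library. Fitted fold changes lay above 0 for 2 of the 6 genes at 22 months and for 4 at 12 months, so the list did not move as one. C1qa, the most abundant of the 6 by median, reached 513 TPM, so the sums lean on it. C1qa, a complement gene of that list, differed by -0.38 ± 0.63 (SE) at 22 months and by 1.44 ± 0.55 (SE, edgeR unadjusted p = 0.0167, adjusted p = 1) at 12 months. The part of the microglial genes in the Tmem63a values was not tested, and that of the oligodendrocyte markers was not tested beyond the covariate.

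**Figure D3:**
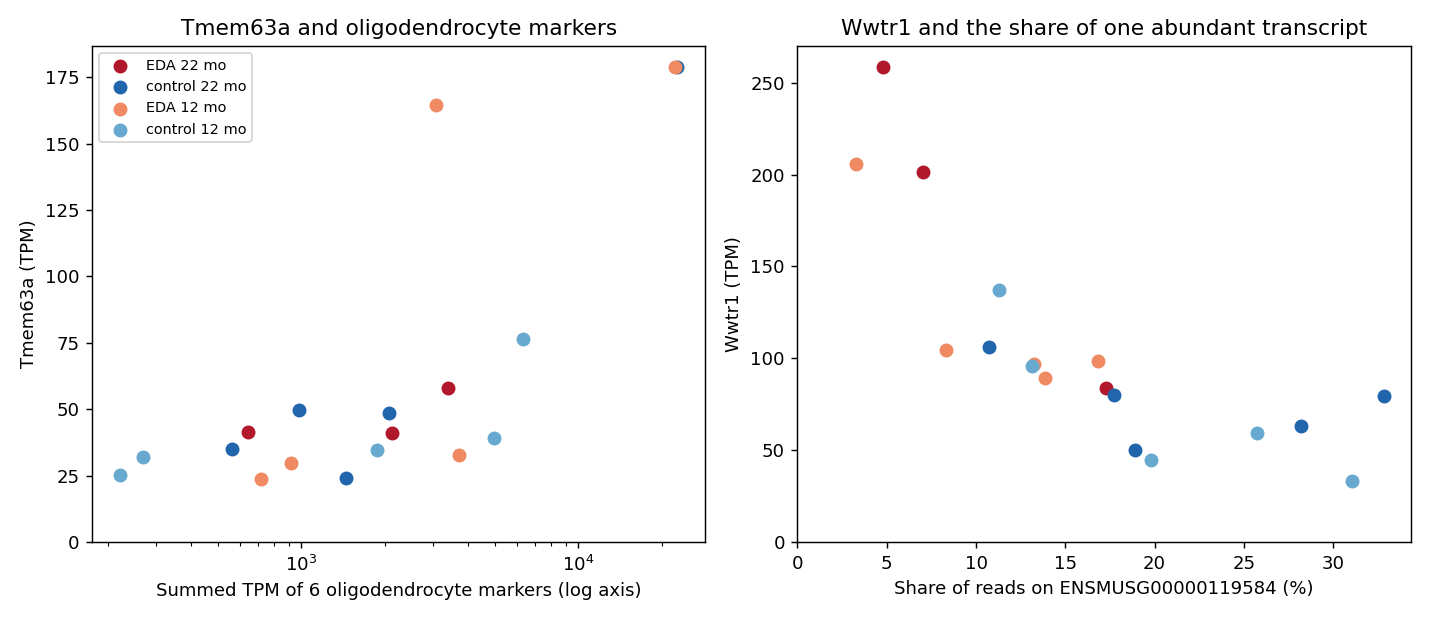
Left, Tmem63a in TPM against the summed TPM of 6 oligodendrocyte markers (log axis); right, Wwtr1 in TPM against the share of reads on ENSMUSG00000119584 in percent, with 1 point per library coloured by group. On the left 2 libraries near 179 TPM coincide at marker sums of 22304 and 22785 TPM, and on the right the 3 libraries above 200 TPM have the 3 lowest shares.

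Tmem63b, the close relative of Tmem63a, was far less abundant by mean level. It stood at 10.7, 5.40 and 7.76 TPM in EDA-labelled libraries at 22 months, against 1.78, 9.43, 8.23, 4.65 and 5.06 TPM in C57BL/6J-labelled ones. At 12 months it stood at 8.48, 8.58, 5.38, 4.05 and 11.1 TPM in EDA-labelled and at 4.72, 2.27, 6.34, 1.83 and 10.7 TPM in C57BL/6J-labelled libraries. The ranges overlapped at both ages, and the log2 fold changes were -0.07 ± 0.71 (SE) and 0.35 ± 0.61 (SE). The log2 ratio of Tmem63b to Tmem63a within a library, which does not depend on scaling, was higher by 0.70 in EDA-labelled libraries at 22 months and by 0.06 at 12 months. Neither difference passed an exact two-sided permutation test (p = 0.286 and 0.968, adjusted over 8 such tests 0.783 and 0.968).

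Panx1, the gene of the ATP-releasing pore pannexin 1, was at 0 in 3 libraries. It stood at 2.21, 2.60 and 0 TPM in EDA-labelled libraries at 22 months, against 1.04, 1.29, 7.38, 1.4 and 0.82 TPM in C57BL/6J-labelled ones. At 12 months the values were 5.08, 2.27, 3.07, 17.3 and 0 TPM in EDA-labelled and 0.44, 3.34, 11.9, 0 and 5.82 TPM in C57BL/6J-labelled libraries. Groups overlapped at both ages, and the log2 fold changes of -0.29 ± 1.61 (SE) and -0.13 ± 1.38 (SE) carried errors larger than the values. A coding transcript of 5732 nt held 3.40% ± 4.97 of the gene's TPM (SD over the 15 libraries with any). Transcripts of 357 nt, annotated as coding, and 1854 nt, annotated as subject to decay, led in 8 and 7 of these 15. Whether the 357-nt transcript holds a whole reading frame was not examined.

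YAP and TAZ were examined as a pair, since they share partners and targets. Yap1 was even across the libraries, and Wwtr1, the gene of TAZ, was not. Yap1 stood at 696, 556 and 392 TPM in EDA-labelled libraries at 22 months, against 467, 461, 401, 492 and 392 TPM in C57BL/6J-labelled ones. At 12 months Yap1 stood at 529, 482, 436, 379 and 656 TPM in EDA-labelled and at 384, 313, 451, 514 and 373 TPM in C57BL/6J-labelled libraries. The highest of the 18 values was 2.22 times the lowest, the smallest such ratio among the 10 genes, and the groups overlapped at both ages. The log2 fold change of Yap1 was 0.19 ± 0.27 (SE) at 22 months and 0.00 ± 0.23 (SE) at 12 months. For 22 against 12 months it was 0.39 ± 0.27 (SE) in EDA-labelled and 0.20 ± 0.23 (SE) in C57BL/6J-labelled libraries. Approximate 95% intervals of the label effects ran from -0.33 to 0.72 at 22 months and from -0.46 to 0.46 at 12 months. They use a normal approximation, which is narrower than the test behind the p-values would give.

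Wwtr1 stood at 202, 83.9 and 259 TPM in EDA-labelled libraries at 22 months, against 63.3, 79.3, 50.3, 79.9 and 106 TPM in C57BL/6J-labelled ones. EDA-labelled replicates 1 and 3 lay above every C57BL/6J-labelled library, and replicate 2 lay within their range. The log2 fold change was 1.36 ± 0.48 (SE), with an unadjusted p of 0.0102 and an adjusted p of 1.0 in edgeR, and its adjusted p was 0.634 in DESeq2. At 12 months Wwtr1 stood at 97.1, 98.7, 89.1, 206 and 104 TPM in EDA-labelled and at 44.7, 59.3, 137, 95.6 and 33.2 TPM in C57BL/6J-labelled libraries. All 5 EDA-labelled values lay above the C57BL/6J-labelled median of 59.3 TPM, and the groups overlapped. The log2 fold change was 0.48 ± 0.43 (SE, edgeR unadjusted p = 0.276) there, and the interaction was 0.89 with an unadjusted edgeR p of 0.186. For 22 against 12 months it was 0.95 ± 0.48 (SE, edgeR adjusted p = 0.961) in EDA-labelled and 0.06 ± 0.43 (SE) in C57BL/6J-labelled libraries. Within a library the log2 ratio of Wwtr1 to Yap1 at 22 months was -1.70 ± 1.06 (SD, n = 3) with the EDA label and -2.58 ± 0.43 (SD, n = 5) with the C57BL/6J label (exact permutation p = 0.214). At 12 months it was -2.11 ± 0.70 in EDA-labelled and -2.62 ± 0.68 in C57BL/6J-labelled libraries (SD, n = 5 each, exact permutation p = 0.294).

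The Wwtr1 value at 22 months rested on single libraries and was smaller with the share of 1 abundant gene as a covariate. Without EDA-labelled replicate 3 it was 0.64 (edgeR unadjusted p = 0.217), and without replicate 2 it was 1.76. At 12 months it was 0.17 without EDA-labelled replicate 4 and 0.88 without C57BL/6J-labelled replicate 3. The gene ENSMUSG00000119584, to which the annotation gave no symbol, held between 3.26% and 32.8% of a library's reads. Its share ran from 4.82% to 17.3% in EDA-labelled and from 10.7% to 32.8% in C57BL/6J-labelled libraries at 22 months, while at 12 months it ran from 3.26% to 16.8% in EDA-labelled and 11.3% to 31.03% in C57BL/6J-labelled ones. The 3 libraries with the most Wwtr1, which were EDA-labelled replicates 3 and 1 at 22 months and replicate 4 at 12 months, had shares of 4.82%, 7.03% and 3.26%, the 3 lowest of all. With this share as a covariate the Wwtr1 fold change was 0.26 at 22 months (edgeR unadjusted p = 0.570) and -0.11 at 12 months. This covariate was chosen after seeing the data. Since the share ran lower in EDA-labelled libraries at both ages, it cannot be fully told apart from the label. The part of the share in the Wwtr1 values was not tested further. The 2 high libraries at 22 months stood apart in other ways too. EDA-labelled replicate 3 had the fewest genes detected of all libraries, at 9703. Replicate 1 was the only library of that age with Xist above the Y-linked transcripts, and its skeletal muscle genes summed to 240 TPM. The part of these traits was not tested.

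Wwtr1 came mainly from a single transcript, and Yap1 from several. A coding transcript of 4697 nt held 98.6% ± 1.1 of the TPM of Wwtr1 (SD over 18 libraries). Yap1 was divided among several transcripts. A transcript of 1193 nt, annotated as coding, led in 18 of 18 libraries with 42.2% ± 5.2, and another of 4115 nt held 26.7% ± 4.5. Whether the 1193-nt transcript holds a whole reading frame was not examined. A transcript of 1480 nt, annotated as subject to nonsense-mediated decay, held 14.8% ± 5.1. By group, the 1193-nt transcript held 46.7% in EDA-labelled and 43.7% in C57BL/6J-labelled libraries at 22 months, while the 12-month shares were 40.5% in EDA-labelled and 39.8% in C57BL/6J-labelled ones. Among the channels, a coding Piezo1 transcript of 8219 nt led in 13 of 18 libraries. Of Tmem63a, transcripts of 3306 nt and 3258 nt led in 9 and 7 libraries. These shares are estimates, since reads that match several isoforms are divided among them.

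Stretches upstream of a start of Yap1, Wwtr1, Kcnk2 and the TEAD target Ccn1 are shown because each holds the letters CATTCC, the core of the TEAD binding motif, or its reverse complement GGAATG. Each is the 250 bases before the annotated start, 5′ to 3′ on the gene's strand, from RefSeq on GRCm38.p6, a build other than that of the count tables. Capitals mark the motif.
Yap1, chr9:8004597-8004846, minus strand: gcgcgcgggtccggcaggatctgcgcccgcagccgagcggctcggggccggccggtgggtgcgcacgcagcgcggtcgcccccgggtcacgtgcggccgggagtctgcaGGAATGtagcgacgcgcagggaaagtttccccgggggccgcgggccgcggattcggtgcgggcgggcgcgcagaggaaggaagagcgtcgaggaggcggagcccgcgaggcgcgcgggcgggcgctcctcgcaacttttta
Wwtr1, chr3:57575911-57576160, minus strand: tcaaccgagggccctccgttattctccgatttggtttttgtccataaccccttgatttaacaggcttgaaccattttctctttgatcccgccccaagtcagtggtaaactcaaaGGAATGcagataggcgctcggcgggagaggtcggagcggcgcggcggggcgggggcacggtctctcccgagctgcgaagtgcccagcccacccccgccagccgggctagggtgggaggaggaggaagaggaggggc
Kcnk2, chr1:189402274-189402523, minus strand: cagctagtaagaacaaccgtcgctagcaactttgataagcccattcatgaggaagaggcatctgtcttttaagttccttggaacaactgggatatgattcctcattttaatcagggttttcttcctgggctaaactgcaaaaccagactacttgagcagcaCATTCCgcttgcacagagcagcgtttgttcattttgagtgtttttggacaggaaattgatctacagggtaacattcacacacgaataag
Ccn1, chr3:145649986-145650235, minus strand: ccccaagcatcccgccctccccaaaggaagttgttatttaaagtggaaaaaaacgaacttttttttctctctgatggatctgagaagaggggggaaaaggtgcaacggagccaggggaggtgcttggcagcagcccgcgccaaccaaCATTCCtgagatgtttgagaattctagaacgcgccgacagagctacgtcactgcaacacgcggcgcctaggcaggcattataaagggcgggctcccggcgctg
Counted back from 1 at the base before the start, the motif's first letter lay at 141 in Yap1, 136 in Wwtr1, 89 in Kcnk2 and 103 in Ccn1. Both strands were searched, and a match on one strand cannot overlap a match on the other. Promoters of 9 of the 10 genes were in the table (not Piezo2), and those of 4 of these 9 held the motif, counting Kcnk2, which held it upstream of 1 of its 4 starts, and Trpv2, which held it upstream of 1 of 3. By promoter this was 5 of 15, or 33.3%, where 12.6% of the 32851 promoters in the table held it. The 5 include overlapping Wwtr1 stretches that hold the same match, at 136 and 170 bases before their starts, so it is counted more than once. A match describes the letters only.

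Trpm3 and the LRRC8 subunits were far more abundant than the Piezo and TRPV channels. Among 25 other mechanosensitive channel genes, 17 passed the filter, and the median over the 18 libraries was 295 TPM for Trpm3, a calcium channel of glia and neurons. It was 206 TPM for Gja1, the astrocyte gap junction protein, and 174, 104, 72.0 and 66.5 TPM for Lrrc8d, Lrrc8c, Lrrc8a and Lrrc8b, subunits of the swelling-activated anion channel. Trpv1, Trpa1, Tmc1 and Tmc2 were at 0 in all 18 libraries. At 22 months 12 of the 17 had fold changes above 0, with a median of 0.27 on the log2 scale, where the median of all genes was -0.07. None passed the test, and 2 had an unadjusted p under 0.05, where 3.96% of all genes did at 22 months and 4.56% at 12 months. Panx2, a relative of Panx1, ran from 9.54 to 19.6 TPM in EDA-labelled and from 1.93 to 8.34 TPM in C57BL/6J-labelled libraries (1.28 ± 0.54 (SE), edgeR adjusted p = 1.0). By TPM those groups did not overlap. On scaled counts, 2.75% of all genes separated the labels at 22 months, and the share by TPM was not computed. Tmem63c ran from 0 to 3.06 TPM in EDA-labelled and from 0 to 0.03 TPM in C57BL/6J-labelled libraries. Trpc6 ran from 0 to 0.48 TPM in EDA-labelled and from 0.09 to 2.43 TPM in C57BL/6J-labelled libraries, and Trpm3 differed by 0.51 ± 0.40 (SE). At 12 months 7 of 17 lay above 0, with a median of -0.11 against -0.01 for all genes. Only Lrrc8c had an unadjusted p under 0.05, at 108 to 298 TPM in EDA-labelled and 55.2 to 144 TPM in C57BL/6J-labelled libraries (0.65 ± 0.26 (SE), edgeR adjusted p = 1.0). For 22 against 12 months in EDA-labelled libraries Lrrc8d differed by 1.36 ± 0.59 (SE) and Lrrc8c by -0.69 ± 0.31 (SE), both with an adjusted edgeR p of 0.961.

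Partners of the channels and the purinergic receptors that sense released ATP showed no called change either. Over all genes, 3.96% had an unadjusted p under 0.05 between the labels at 22 months and 4.56% at 12 months. Of 17 genes in this list, 16 passed the filter. At 22 months 10 lay above 0 (median 0.19) and none had an unadjusted p under 0.05; at 12 months 8 did (median 0.05) and 1 had such a p. That gene was P2ry1, an ADP receptor, which ran from 0 to 0.74 TPM in EDA-labelled and from 0 to 5.55 TPM in C57BL/6J-labelled libraries (-4.34 ± 1.94 (SE), edgeR adjusted p = 1.0). Tmem150c, the gene of a membrane protein known as tentonin 3, ran from 0.23 to 31.5 TPM in EDA-labelled and from 12.3 to 52.9 TPM in C57BL/6J-labelled libraries at 12 months (-1.41 ± 0.77 (SE)). P2rx4, an ATP-gated channel, differed by -1.03 ± 0.57 (SE) there. P2ry12, a receptor of microglia, ran from 0.48 to 4.38 TPM in EDA-labelled and from 3.45 to 33.3 TPM in C57BL/6J-labelled libraries at 22 months (-2.47 ± 1.53 (SE)). P2rx7, the ATP receptor that works together with pannexin 1, had a median of 26.1 TPM, and Adora1 and Aqp4 had medians of 33.2 and 81.4 TPM.

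The Hippo kinases that restrain YAP and TAZ were all measured, and none passed the test. Median levels over the libraries were 4.35 TPM for Stk3 and 7.67 TPM for Stk4, the upstream kinases, 13.1 TPM for their scaffold Sav1, and 16.3 and 5.40 TPM for Lats1 and Lats2, the kinases that phosphorylate YAP. Map4k4, a parallel upstream kinase, stood at 107 TPM. Between the labels, 3.96% of all genes had an unadjusted p under 0.05 at 22 months and 4.56% at 12 months. All 28 genes of this list passed the filter. At 22 months 16 lay above 0 (median 0.13) and 1 had an unadjusted p under 0.05: Taok2, an upstream kinase, ran from 0.50 to 2.53 TPM in EDA-labelled and from 1.99 to 4.52 TPM in C57BL/6J-labelled libraries (-1.56 ± 0.67 (SE), edgeR adjusted p = 1.0). At 12 months 11 lay above 0 (median -0.14) and 1 had such a p. Fat4, a giant cadherin, ran from 0.01 to 1.06 TPM in EDA-labelled and from 0.59 to 1.79 TPM in C57BL/6J-labelled libraries (-1.85 ± 0.68 (SE), edgeR adjusted p = 1.0). In EDA-labelled libraries Fat4 ran from 0.77 to 2.65 TPM at 22 months and from 0.01 to 1.06 TPM at 12 months (2.36 ± 0.75 (SE), edgeR adjusted p = 0.961). The scaffold gene Limd1 differed by -0.73 ± 0.49 (SE) between the labels at 22 months and by -0.91 ± 0.50 (SE) between the ages in EDA-labelled libraries.

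Tead1 was the main TEAD factor in this tissue by level, and Runx1 and Runx2, partners of YAP and TAZ, each had a low unadjusted p between the labels at 1 age. Tead1 had a median of 84.6 TPM, against 1.18 TPM for Tead3, 0.025 TPM for Tead4 and 0 TPM for Tead2. Of 10 genes in this list 8 passed the filter. Runx1 ran from 17.6 to 44.9 TPM in EDA-labelled and from 6.45 to 18.1 TPM in C57BL/6J-labelled libraries at 12 months (1.32 ± 0.37 (SE), edgeR unadjusted p = 0.00204, adjusted p = 1.0). At 22 months Runx1 differed by -0.19 ± 0.43 (SE, edgeR unadjusted p = 0.665). For 22 against 12 months in EDA-labelled libraries it differed by -0.95 ± 0.44 (SE, edgeR adjusted p = 0.961). Runx2 ran from 3.86 to 25.0 TPM in EDA-labelled and from 0.69 to 5.78 TPM in C57BL/6J-labelled libraries at 22 months (2.48 ± 0.92 (SE), edgeR unadjusted p = 0.0135, adjusted p = 1.0). At 12 months Runx2 differed by 0.65 ± 0.81 (SE, edgeR unadjusted p = 0.430). Vgll3, a co-factor of TEAD, ran from 0 to 1.10 TPM in EDA-labelled libraries at 12 months and was at 0 in all 5 C57BL/6J-labelled ones. Tead1 differed by -0.34 ± 0.31 (SE) at 22 months and by 0.47 ± 0.27 (SE) at 12 months. By count, 3 of 8 lay above 0 at 22 months (median -0.23) and 1 had an unadjusted p under 0.05, against 3.96% of all genes. At 12 months 5 of 8 did (median 0.55), and 2 had such a p, Runx1 and Vgll3, both higher, as 2.96% of all genes were.

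**Figure D4:**
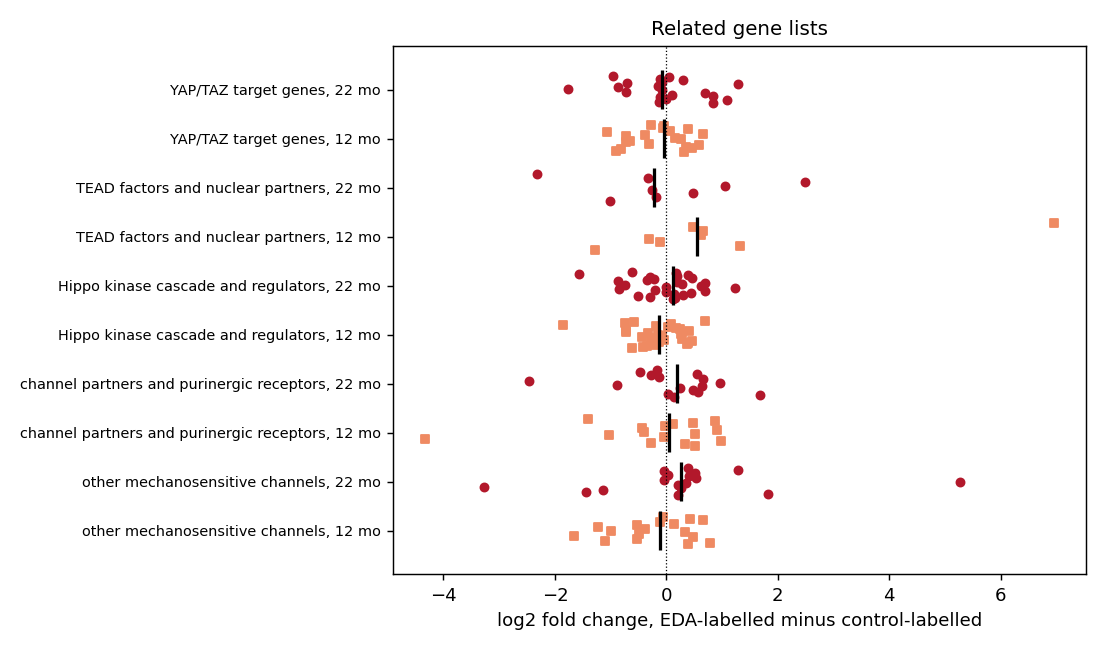
Log2 fold change, EDA-labelled minus C57BL/6J-labelled, of every tested gene in 5 related lists at 22 months (circles) and 12 months (squares), with a bar at each list's median. Medians lie between -0.23 and 0.55, and single genes spread to both sides of 0 in each list.

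Target genes of YAP and TAZ did not shift together. Of 22 targets 20 passed the filter. At 22 months 9 of 20 lay above 0 (median -0.08, against -0.07 for all genes) and at 12 months 9 of 20 (median -0.05, against -0.01). The most abundant were Axl, a receptor tyrosine kinase, with a median of 551 TPM, and Crim1, with 223 TPM. The classical targets Ccn2 and Ccn1, matricellular proteins, had medians of 74.3 and 30.7 TPM, and Ankrd1 was at 0 in 16 of 18 libraries. Axl was the single target with an unadjusted p under 0.05, between the labels at 22 months, where 3.96% of all genes had one. It ran from 593 to 1033 TPM in EDA-labelled and from 245 to 881 TPM in C57BL/6J-labelled libraries at 22 months (0.83 ± 0.36 (SE), edgeR adjusted p = 1.0). Ccn2 ran from 16.3 to 118 TPM in EDA-labelled and from 63.5 to 139 TPM in C57BL/6J-labelled libraries at 12 months (-0.90 ± 0.58 (SE)). Ccn1 ran from 12.5 to 69.7 TPM at 22 months and from 18.3 to 36.4 TPM at 12 months in C57BL/6J-labelled libraries (0.94 ± 0.58 (SE)). Between the ages, 13 of 20 targets lay above 0 in EDA-labelled libraries (median 0.19) and 10 of 20 in C57BL/6J-labelled ones (median -0.01), where the medians of all genes were -0.06 and 0.02. Lats2, Ptpn14 and Amotl2 belong both to the targets and to the Hippo list.

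Age was compared within each label, and no member passed the test in either. For 22 against 12 months in EDA-labelled libraries, Tmem63a differed by -0.90 ± 0.61 (SE, edgeR adjusted p = 0.999), and its 12-month libraries included 2 of its 3 high values. In C57BL/6J-labelled libraries it differed by 0.62 ± 0.51 (SE), and Tmem63b by 0.78 ± 0.62 (SE, edgeR unadjusted p = 0.220). The sign of Tmem63a was thus opposite in the 2 labels, which is the interaction already given. Its C57BL/6J-labelled value was -0.0251 without replicate 3 at 22 months. Piezo2 differed by 0.10 ± 0.85 (SE) in EDA-labelled and by -0.43 ± 0.74 (SE) in C57BL/6J-labelled libraries, Kcnk2 by -0.39 ± 0.98 (SE) and -0.58 ± 0.84 (SE), and Trpv4 by -0.10 ± 0.72 (SE) and -0.14 ± 0.62 (SE). Each of these was smaller than its standard error.

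Among the related genes, a few had an unadjusted p under 0.05 for 22 against 12 months. Over all genes, 4.98% had one in EDA-labelled and 3.51% in C57BL/6J-labelled libraries. In EDA-labelled libraries these were Lrrc8d, Lrrc8c, Fat4 and Runx1, described with their lists, and P2ry1. P2ry1 ran from 0 to 6.35 TPM at 22 months and from 0 to 0.74 TPM at 12 months (4.47 ± 2.04 (SE), edgeR adjusted p = 0.961). In C57BL/6J-labelled libraries they were Ywhaq, Tmem63c and Vgll3. Ywhaq, a 14-3-3 protein of the family that holds phosphorylated YAP in the cytoplasm, ran from 2.98 to 12.2 TPM at 22 months and from 1.45 to 2.90 TPM at 12 months (1.39 ± 0.67 (SE), edgeR adjusted p = 1.0). Tmem63c reached 0.03 TPM at 22 months and 1.73 TPM at 12 months, and Vgll3 reached 0.72 TPM at 22 months and was at 0 in all 12-month libraries. Both are too low for a firm value. Ptpn14, a phosphatase that binds YAP, ran from 0.61 to 7.94 TPM at 22 months and from 3.04 to 15.65 TPM at 12 months (-1.23 ± 0.63 (SE), edgeR adjusted p = 1.0). Csnk1e, a casein kinase of the Hippo list, differed by -1.62 ± 0.80 (SE) in these libraries.

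For comparison, the 10 genes themselves lay above 0 in 5 of 10 cases at 22 months (median 0.06) and in 7 of 10 at 12 months (median 0.31), where 46.0% and 49.5% of all genes did. Between the ages they lay above 0 in 5 of 10 cases in EDA-labelled libraries (median 0.00) and in 4 of 10 in C57BL/6J-labelled ones (median -0.28), where 46.9% and 51.6% of all genes did. The comparisons at each age and within each label share libraries, so these counts are not independent of each other.

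Genes whose log2 CPM followed the 3 most abundant members over the 18 libraries were listed as a description among 4371 abundant genes. The libraries differ in make-up, which such likeness includes. For Yap1 they were Gtf2i, Dgka and Pde7b, with Pearson r of 0.842, 0.831 and 0.823 and Spearman rho of 0.833, 0.899 and 0.831. For Wwtr1 they included Mrpl48 and Rad23b, with r of 0.945 and 0.943 and rho of 0.874 and 0.930. For Tmem63a they were the microglial complement gene C1qa, Rhog and Myo1d, with r of 0.893, 0.880 and 0.879 and rho of 0.608, 0.812 and 0.639. Without the 2 libraries farthest from the member's median, r of the genes named stayed between 0.752 and 0.906.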

How the data were processed

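Per the labels' protocols, cDNA made with SMART-Seq v4 was built into unstranded Nextera XT libraries, aligned with STAR and quantified with RSEM. The build was GRCm39, per the submitters' processing notes. Which versions and annotation were used is not given in the sources used here. Gene values were the authors' deposited expected counts. Of these estimates 3.59% were not whole, and rounding preceded every test. The deposited TPM values, from the authors' gene and isoform tables, were used for levels and ratios. Of the 55416 identifiers, 52083 were given a symbol from GENCODE M21 (GRCm38).

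Counts were filtered with filterByExpr (15118 genes), scaled by TMM and fitted in edgeR 4.0.16 under R 4.3.3, with a mean for each of 4 groups, two-sided, and Benjamini-Hochberg adjustment over all genes (threshold 0.05). Ratios of TPM plus 0.5 were compared by exact permutation. Scripts were tested on simulated data. The members and lists were chosen with earlier results of these data known. All 10 members are named, with up to 4 genes of each list by smallest p in a comparison. Some results under these lists and rules are not reported here. Libraries held 13097498 to 18488733 counts, but those of the same group all differed by more than sampling noise (lowest chi-square per degree of freedom 39.1), so the spread among the 3 to 5 libraries of a group sets the precision. Standard errors of fold changes were derived from the fold change and edgeR's F statistic. Intervals use a normal approximation and cover this fit only. Alternatives were DESeq2 1.42.0, RLE factors, no filter, the 2 groups alone, covariates, a pseudocount of 0.1 and leaving out libraries.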

Additional observations from a re-analysis of the deposited data

Results flagged for a closer look

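Single libraries that stood apart from the other 4 of their group were looked for in the 10 genes and 2 ratios, over 36 sets of 5 libraries. A library was listed where its gap to the nearest other exceeded 0.71 of the group's range, which chance alone gives in about 1 in 20 sets of normally distributed values. TPM values, with a floor at 0, need not be so distributed, and the chance share may differ for them. C57BL/6J-labelled replicate 3 at 22 months was listed for Tmem63a at 178.81 TPM, with the next at 49.89 TPM, and for Panx1 at 7.38 TPM, with the next at 1.4 TPM. It was also listed for Trpv2 at 1.04 TPM, but with the others at 0 any value above 0 is listed, so the chance share does not apply there. EDA-labelled replicate 4 at 12 months was listed for Wwtr1 at 205.53 TPM, with the next at 104.45 TPM, and for the log2 ratio of Wwtr1 to Yap1 at -0.88, with the next at -2.28. C57BL/6J-labelled replicate 5 at 12 months was listed for Trpv2 at 1.59 TPM, with the next at 0.09 TPM. The rest were at 0, so the chance share does not apply there either. C57BL/6J-labelled replicate 2 at 12 months was listed for Tmem63a at 76.46 TPM, with the next at 39.14 TPM.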

How the results depend on the processing

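No paired analysis was possible because replicate numbers were given in accession order and pair no libraries. No gene passed under RLE factors, no filter or the 2 groups alone, whereas DESeq2 called 35 and 22 genes between the labels at 22 and 12 months, 43 and 23 between the ages in EDA-labelled and C57BL/6J-labelled libraries, and 37 for the interaction. The cause was not tested. None of the 10 genes passed under any alternative. With Xist against Y-linked transcripts as a covariate for the sexes, which the groups mixed unequally, the log2 fold change between the labels turned to 0.052 for Piezo1 and 0.0074 for Tmem63b at 22 months and 0.15 for Panx1 at 12 months, and Trpv4 turned to 0.18 between the ages in EDA-labelled and 0.074 in C57BL/6J-labelled libraries. With a covariate for the share of ENSMUSG00000119584, chosen after seeing the data, the 22-month values turned to 0.0023 for Piezo2, -0.41 for Trpv4 and 0.37 for Tmem63b. The 12-month values turned to -0.46 for Trpv4, -0.32 for Kcnk2 and -0.11 for Wwtr1, and Piezo2 turned to -0.11 between the ages in EDA-labelled libraries. A covariate for oligodendrocyte markers, also chosen after seeing the data, turned Panx1 to 0.0111 at 22 months, and the 2 groups alone turned Yap1 to -0.0036 at 12 months. The cause was not tested for any of these.

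Leaving out libraries, including both EDA-labelled replicate 4 at 12 months and replicate 3 at 22 months, turned the sign of small values. Between the labels at 22 months the ranges were -0.28 to 0.18 for Piezo1, -1.24 to 0.11 for Piezo2, -0.27 to 4.46 for Trpv2, -0.26 to 0.68 for Trpv4, -0.25 to 1.01 for Kcnk2, -0.28 to 0.30 for Tmem63b and -2.14 to 0.59 for Panx1. At 12 months they were -0.24 to 0.55 for Trpv4, -0.35 to 0.58 for Kcnk2, -0.99 to 0.78 for Panx1 and -0.10 to 0.12 for Yap1. Between the ages in EDA-labelled libraries they were -0.046 to 0.47 for Piezo1, -0.66 to 0.74 for Piezo2, -0.72 to 0.49 for Trpv4, -1.12 to 0.76 for Kcnk2 and -2.78 to 0.49 for Panx1. In C57BL/6J-labelled libraries they were -5.59 to 2.42 for Trpv2, -0.42 to 0.062 for Trpv4, -0.0251 to 0.86 for Tmem63a, -1.65 to 0.0651 for Panx1 and -0.13 to 0.41 for Wwtr1. The ratio of Wwtr1 to Yap1 ran from -0.15 to 0.92 between the ages in EDA-labelled and from -0.17 to 0.27 in C57BL/6J-labelled libraries. That of Tmem63b to Tmem63a ran from -0.10 to 0.83 in EDA-labelled and from -0.64 to 0.26 in C57BL/6J-labelled libraries, and from -0.39 to 0.61 between the labels at 12 months. The number of genes passing at 12 months ran from 0 to 1, with 1 when EDA-labelled replicate 4 was left out, alone or together with EDA-labelled replicate 3 at 22 months.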
